A study of Mus musculus with 12 samples.

Results

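The costimulatory ligands of antigen-presenting cells examined here were Cd80, Cd86, Cd40, Icosl, Cd274, Pdcd1lg2 and Cd276, taken by name from the count table. Of these 7 genes 6 were found among the 547 endogenous genes of the NanoString mouse Immunology code set, a panel of color-coded probes that counts single RNA molecules, and Cd276 was not analysed here. RNA came from 12 samples labelled as DO11.10 T cells, which are specific for ovalbumin, on the BALB/c background, used in a mouse model of cutaneous lupus. The 3 Th2 cultures (1 of experiment 1, 1 labelled male and 1 labelled female of experiment 2) had been skewed with IL-4 and antibodies to IFNγ and IL-12p40, the 2 Th1 cultures (1 per experiment) with IFNγ and antibody to IL-4, and the single Th0 culture belonged to experiment 2. All cultures received IL-2 and ovalbumin-pulsed splenocytes, a source of antigen-presenting cells, and were harvested after 10 days. The skin samples were cells enriched from digested lesions (with CD3 beads per the labels, while the study's text also names KJ1-26 beads, specific for the transferred T cell receptor) of irradiated Ii-TGO recipients of Th2 cells, in which doxycycline drives an ovalbumin fusion protein through an invariant chain promoter, active in MHC class II+ cells. They came from 3 mice of experiment 1 at first lesions (about week 4, skin scores 1, 3 and 3 in mice 1, 3 and 6) and from 3 mice at flare (about week 12, scores 1 and 0.5 in mice 1 and 2 of experiment 1, and 2 in mouse 12 of experiment 2). A mouse 1 of experiment 1 occurs in both skin groups, and whether it was the same animal is not given in the sources used here. The recipients' TLR9 genotype and the donor strain are not given per sample, and the ages of the mice are not given. The study's text describes lesions in TLR9-deficient Ii-TGO recipients of Th2 cells, and no disease in TLR9 wild-type Ii-TGO mice. It names DO11.10 mice or Rag-deficient DO11.10 mice as donors, in some experiments crossed to an IL-4 reporter line. The 2 experiment 2 Th2 cultures carry different sex labels, but the donors behind each culture are not described further. The p-values therefore measure the spread between samples, which may in part be technical.

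A T cell needs a costimulatory signal beside antigen, and these genes encode the partner molecules on the presenting cell. CD80 and CD86 engage CD28, which activates, and CTLA-4, which restrains. ICOSL engages ICOS, a receptor prominent on helper T cells. CD40 runs the other way, since the T cell's CD40 ligand signals into the presenting cell and raises its CD80 and CD86. PD-L1 (Cd274) and PD-L2 (Pdcd1lg2) engage the inhibitory receptor PD-1. PD-L1 is induced by IFNγ in many cell types, and PD-L2 is more restricted to dendritic cells and macrophages and responds to IL-4 through STAT6. Activated T cells can also transcribe several of these genes, so a bulk count does not name the cell that made the RNA, and fewer cells of a type cannot be told apart from less RNA per cell.

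Promoter sequence was available for 4 of the 6 genes, Cd80, Icosl, Cd274 and Pdcd1lg2. Those of Icosl, Cd274 and Pdcd1lg2 are shown because Icosl had the largest difference between Th2 and Th1 cultures among the 6 genes, and the PD-1 ligand pair was above the detection limit most often in first-lesion skin. Each run holds the 250 bases upstream of the gene's start (RefSeq, GRCm38.p6, + strand, 5′ to 3′), with the capitals marking motif matches on either strand. Icosl lies at chr10:78069118-78069367, Cd274 at chr19:29367188-29367437 and Pdcd1lg2 at chr19:29410669-29410918.
Icosl: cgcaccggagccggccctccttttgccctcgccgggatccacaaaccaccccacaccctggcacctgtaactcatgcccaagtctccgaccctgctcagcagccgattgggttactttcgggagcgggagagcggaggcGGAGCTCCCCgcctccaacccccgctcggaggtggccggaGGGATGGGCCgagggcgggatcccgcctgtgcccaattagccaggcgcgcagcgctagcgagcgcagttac
Cd274: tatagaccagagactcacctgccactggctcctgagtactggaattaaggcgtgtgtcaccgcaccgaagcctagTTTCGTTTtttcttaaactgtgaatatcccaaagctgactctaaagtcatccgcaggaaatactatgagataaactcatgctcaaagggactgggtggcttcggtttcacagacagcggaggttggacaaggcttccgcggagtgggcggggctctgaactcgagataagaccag
Pdcd1lg2: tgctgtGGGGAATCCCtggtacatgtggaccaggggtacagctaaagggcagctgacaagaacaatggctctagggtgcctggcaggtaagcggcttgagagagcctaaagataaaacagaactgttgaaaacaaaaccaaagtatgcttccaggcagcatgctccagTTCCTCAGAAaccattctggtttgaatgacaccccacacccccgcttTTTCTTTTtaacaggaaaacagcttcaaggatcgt
The motifs searched, on both strands, were of 4 types. The STAT6 type TTCNNNNGAA matched Pdcd1lg2 once, and 5.85% of the 32851 mouse promoter windows of that length hold it. The IRF core AANNGAAA matched Cd274 once and Pdcd1lg2 once, against 21.3% of all windows. The NF-kB type GGGNNNNNCC matched Icosl at 2 places and Pdcd1lg2 at 1 place, and 45.8% of windows hold it. The GAS type TTCNNNGAA, found in 7.02% of windows, had no match in these runs. No match overlapped another. Cd274 and Pdcd1lg2 are neighbors on chromosome 19, with 1 lncRNA (Gm36043) and 0 protein-coding genes annotated between them.

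Signal differed between cultures and skin. Endogenous counts summed to 25925 to 131229 in the 6 skin samples and to 417917 to 481131 in the 6 cultures, and 163 to 303 and 362 to 403 genes lay above the detection limit, which is the sample's negative control mean plus 2 SDs. Counts are given scaled to 7 housekeeping genes, so that the limit itself became 35.7 to 242 scaled counts in skin and 3.87 to 8.41 in cultures. Of the 36 values of the 6 genes in skin 11 were above the limit, against 35 of 36 in cultures. The label of the skin samples as T cells was checked on 8 marker genes. They summed to 188 to 915 scaled counts at first lesions and 460 to 749 at flare, against 7783 to 9390 in Th2 cultures. Of the 8 markers 0 to 2 were above the limit at first lesions and 1 to 3 at flare, against 8 in each Th2 culture. Cd2, an adhesion receptor of T cells, was above it in 5 of 6 skin samples, and Cd3e, a chain of the T cell receptor complex, in 0 of 6. Most of the 8 markers therefore did not bear out the label of the skin samples as T cells. Of 12 monocyte and macrophage markers 5 to 8 were above the limit at first lesions and 7 or 8 at flare, against 1 to 3 in Th2 cultures. Csf1r and Cd14 were above it in 6 of 6 skin samples and in 0 of 6 cultures, Fcgr1 and Cx3cr1 in none of either, Marco in 0 of 6 skin samples and 1 of 6 cultures, and Tlr4 in 5 of 6 skin samples and 6 of 6 cultures.

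In the cultures, Icosl and Cd40 were higher in Th2 than in Th1 cells and the other 4 genes did not pass the test. Of 400 genes put to the quasi-likelihood test of edgeR (adjusted p under 0.05), 27.3% were higher and 4.5% lower in Th2 cells, and the median log2 fold change was 0.58, so 2 of 6 genes higher is near that background. With the 8 negative control probes, which have no target in the mouse, added to the fit, 2 were called higher and 0 lower. Those 2 had log2 fold changes of 1.54 (adjusted p = 0.0419) and 2.06 (adjusted p = 0.0460) from edgeR, against 1.88 for Icosl and 1.35 for Cd40. Icosl, the ICOS ligand, had 22.6, 13.0 and 12.3 scaled counts in Th2 cultures (experiment 1, then male and female of experiment 2), against 6.21 and 2.49 in Th1 cultures of experiments 1 and 2. Every Th2 culture lay above both Th1 cultures, and the lower Th1 value was below the limit. The log2 fold change was 1.88 (SE 0.53, adjusted p = 0.0270 from edgeR), and the log2 ratio was 1.87 within experiment 1 and 2.34 within experiment 2.

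Cd40, through which helper T cells license presenting cells, had 14.2, 18.4 and 28.7 scaled counts in Th2 cultures, against 9.09 and 6.95 in Th1 cultures. Those groups did not overlap either, and the log2 fold change was 1.35 (SE 0.46, adjusted p = 0.0468 from edgeR). The ratio was larger in experiment 2 (1.76) than in experiment 1 (0.64). Groups that do not overlap, with Th2 cells above, were seen in 54% of the genes tested.

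Both calls depended on the scaling. With TMM factors, which brought the median of all genes to 0.02, Icosl had a log2 fold change of 1.32 (adjusted p = 0.0770) and Cd40 of 0.77 (adjusted p = 0.233), both from edgeR, and the genes called were 36 higher and 31 lower rather than 109 and 18. The call of Cd40 was also lost with the experiment as a replicate block (1.28, adjusted p = 0.0587), while that of Icosl was kept (2.10, adjusted p = 0.00998). Without the Th1 culture of experiment 2 neither was called (Icosl 1.36, adjusted p = 0.147; Cd40 1.16, adjusted p = 0.207). Icosl was also lost without the Th2 culture of experiment 1 (1.56, adjusted p = 0.0706), and Cd40 was kept in 1 of 5 fits that each left out 1 culture.

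The CD28 and CTLA-4 ligands were not called. Cd86 had 9.59, 18.4 and 22.0 scaled counts in Th2 cultures, against 9.09 and 6.41 in Th1 cultures. Its groups did not overlap, but the gap came from experiment 2 (log2 ratio 1.66, against 0.076 in experiment 1), and the log2 fold change of 1.11 (SE 0.47, adjusted p = 0.0957 from edgeR) did not pass. Cd80 stood at 15.3, 18.1 and 17.9 scaled counts in Th2 cultures and 14.0 and 17.8 in Th1 cultures, with overlapping groups and a log2 fold change of 0.11 (SE 0.38, adjusted p = 0.836).

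The PD-1 ligands overlapped as well. For Cd274 the Th2 cultures held 82.1, 39.4 and 35.8 scaled counts and the Th1 cultures 51.0 and 30.1. In both groups the experiment 1 culture was the higher, and the log2 fold change was 0.37 (SE 0.47, adjusted p = 0.543). Pdcd1lg2 gave 9.59, 21.3 and 14.2 scaled counts in Th2 cultures and 20.4 and 11.6 in Th1 cultures, a log2 fold change of -0.081 (SE 0.47, adjusted p = 0.904). Here the experiments pointed opposite ways, with log2 ratios of -1.09 in experiment 1 and 0.61 in experiment 2.

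The single Th0 culture, also of experiment 2, had 7.62 scaled counts for Cd80, 5.33 for Cd86, 9.14 for Cd40, 6.60 for Icosl, 36.3 for Cd274 and 6.35 for Pdcd1lg2. It lay below every Th2 and Th1 culture for Cd80, Cd86 and Pdcd1lg2, and between the Th2 and the Th1 cultures for Cd40 and Icosl. For Cd274 it was within the range of the Th2 cultures. With 1 sample there is no replicate check.

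**Figure D1:**
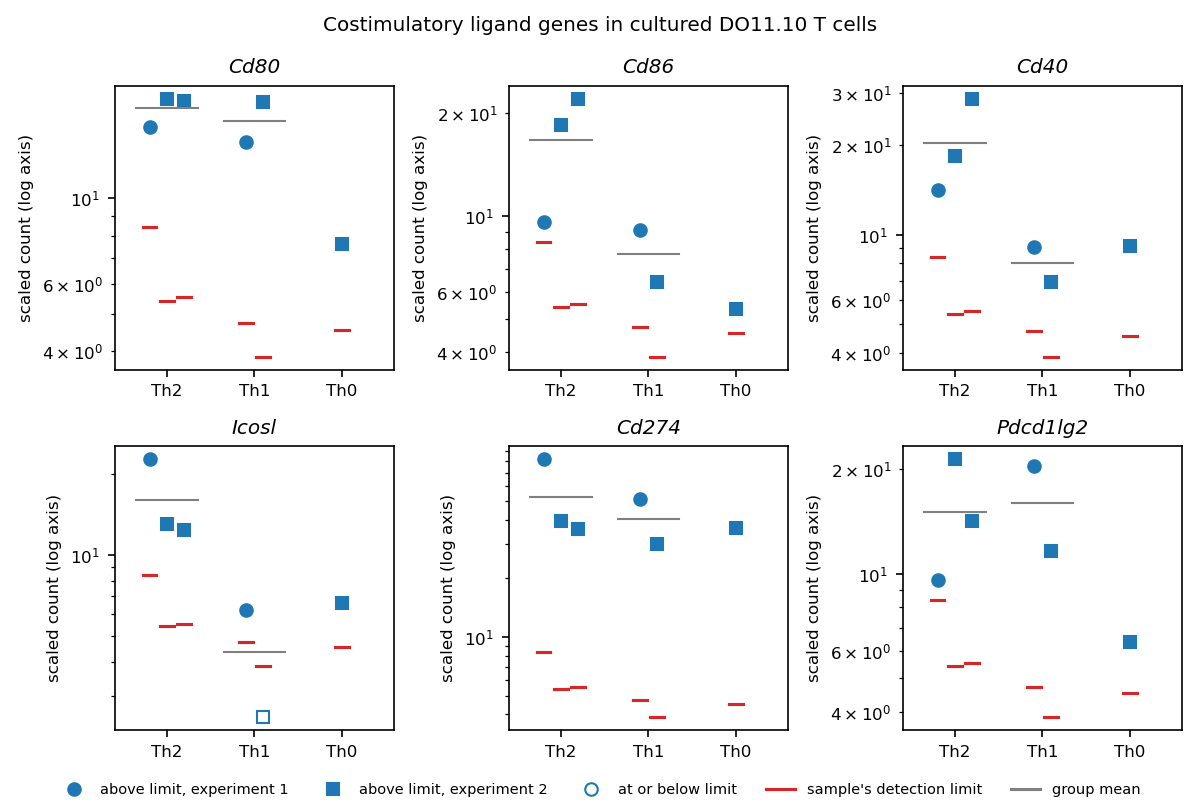
Scaled counts (log axis) of 6 costimulatory ligand genes in Th2, Th1 and Th0 cultures; circles are experiment 1, squares experiment 2, open symbols lie at or below the sample's detection limit (red bars), and gray lines are group means. The 3 Th2 cultures lie above both Th1 cultures for Cd86, Cd40 and Icosl and overlap them for Cd80, Cd274 and Pdcd1lg2.

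**Figure D2:**
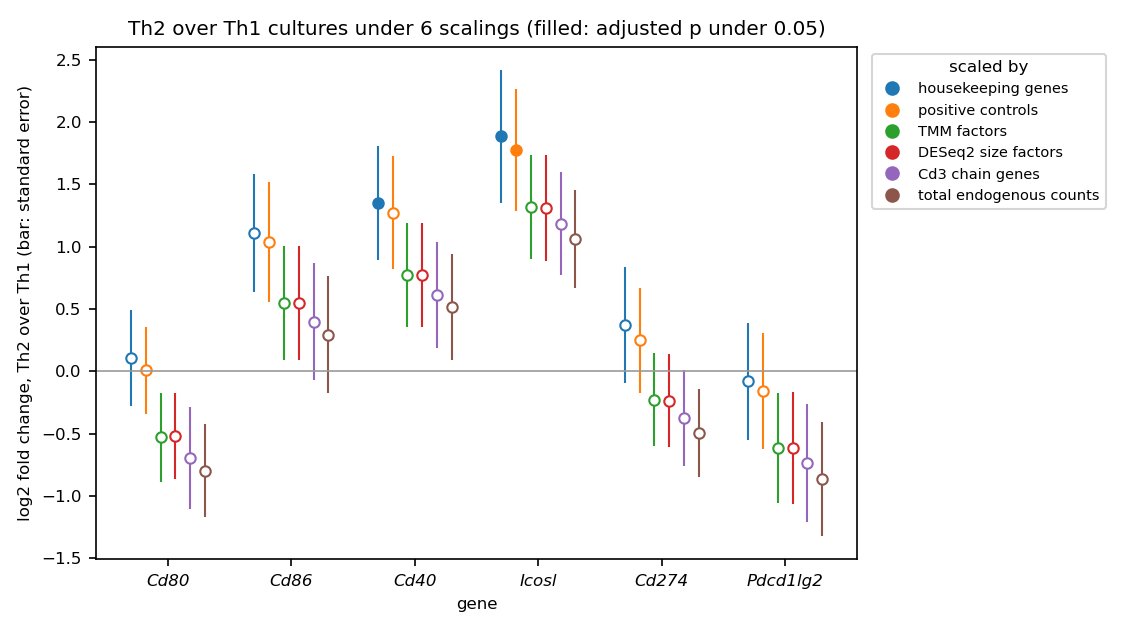
Log2 fold change of Th2 over Th1 cultures for the 6 genes under 6 scalings, with bars for the standard error and filled symbols for an adjusted p under 0.05. Icosl stays above 1 under each scaling and is called under housekeeping and positive control scaling, Cd40 under housekeeping scaling alone, and Cd80 and Cd274 change sign.

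Among the T cell receptors and partners of these ligands, 1 of 5 passed. Icos, the receptor of ICOSL, averaged 4055 ± 250 scaled counts in Th2 cultures (SD, n = 3) and 1317 ± 1012 in Th1 cultures (SD, n = 2), a log2 fold change of 1.62 (SE 0.54, adjusted p = 0.0443 from edgeR). Cd28, Ctla4, Pdcd1 and Cd40lg had log2 fold changes between -0.77 and 1.00 and did not pass. Under TMM factors the list had 0 genes higher and 2 lower. Of 9 CD40 signaling genes, Traf3, an adaptor that CD40 engages, was higher (1.11, adjusted p = 0.0343) and 8 did not pass, and under TMM factors none of the 9 passed.

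Genes upstream of the ligands moved in part. Of 7 genes of the IL-4 and IL-13 pathway 3 were higher in Th2 cells, the cytokines Il13 (1.65) and Il4 (1.63) and the receptor chain Il13ra1 (1.35). Il13ra1 was above the limit in 2 of 3 Th2 and 0 of 2 Th1 cultures. It passed the filter through the Th2 cultures alone, so its direction was fixed in advance. Of 9 tested IFNγ pathway genes 2 were higher, the feedback inhibitor Socs1 (1.55) and the receptor chain Ifngr2 (1.38), while Irf1 (0.23), a transcription factor that IFNγ induces, did not pass. With TMM factors 1 gene of each of these lists was higher.

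Part of the MHC class II and B cell genes were also higher in Th2 cultures, while dendritic cell genes were divided. Of 8 MHC class II presentation genes 6 were higher and none lower, and their sum was 1855 to 5210 scaled counts in Th2 cultures and 592 to 1456 in Th1 cultures. Of 9 tested B cell genes 6 were higher, with Cd79b (1.89) and Cd22 (1.82) leading, and the B cell sum was 469 to 960 in Th2 cultures and 154 to 374 in Th1 cultures. Under TMM factors none of either list was called, with list medians of 1.13 and 0.90. Of 3 tested dendritic cell genes Ccl22 (2.01) was higher and Batf3 (-1.95) was lower, and neither was called under TMM factors. The part of residual splenocytes in the Icosl and Cd40 values was not tested.

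Over the 6 cultures, the closest of 322 other genes by Pearson's r of log2 scaled counts were Il13 (0.94) and Ikbkap (0.94) for Cd86, Il5 (0.97) and Phlpp1 (0.94) for Cd40, Tnfsf10 (0.99) and Zap70 (0.97) for Cd274, Ccl3 (0.93) and Nfkbia (0.87) for Pdcd1lg2, and Cdkn1a (0.81) and Il18r1 (0.77) for Cd80. These are descriptions over 6 samples that share experiments and scaling. Icosl was below the limit in 1 culture and was not ranked, and in skin no ligand gene was above the limit in all 6 samples.

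In first-lesion skin against Th2 cultures, Pdcd1lg2 and Cd274 passed the test and the remaining 4 genes did not. Of 397 genes tested 37% were higher and 22.2% lower, and the median over all was 0.57 on the log2 scale. Cd274 had 406, 47.9 and 194 scaled counts in first-lesion mice 1, 3 and 6, against 82.1, 39.4 and 35.8 in the Th2 cultures. All 3 skin values were above their limits of 242, 35.7 and 54.5, but mouse 3 lay within the range of the cultures. Skin lay wholly above the cultures for 42.1% of the genes tested and for 4 of the 6 ligand genes, all but Cd274 and Cd40. The log2 fold change was 1.99 (SE 0.72, adjusted p = 0.0388 from edgeR).

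Pdcd1lg2 had 247, 23.2 and 70.7 scaled counts in first-lesion mice 1, 3 and 6, against 9.59, 21.3 and 14.2 in Th2 cultures. Mouse 1 exceeded its limit narrowly (34 counts against 33.4), mouse 6 did so with 60 counts against 46.3, and mouse 3 was below. The log2 fold change was 2.80 (SE 0.84, adjusted p = 0.0170 from edgeR). With the experiment as a replicate block neither gene passed (Pdcd1lg2 3.46, adjusted p = 0.0886; Cd274 1.35, adjusted p = 0.351). Nor did they after subtraction of the negative control mean (limma, 1.73 with adjusted p = 0.184 and 1.33 with adjusted p = 0.224).

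For the CD28 ligands and Cd40, first-lesion skin gave no value above the limit. Cd80 stood at 94.4, 18.5 and 36.5 scaled counts in mice 1, 3 and 6, Cd86 at 109, 27.8 and 35.3, and Cd40 at 131, 13.9 and 35.3. The mean limit of these samples was 6.47 times the Th2 culture mean of Cd80, 6.64 times that of Cd86 and 5.42 times that of Cd40 (limits of 242, 35.7 and 54.5 scaled counts in mice 1, 3 and 6). Icosl had 50.8, 41.7 and 27.1 scaled counts and was above the limit in mouse 3 (27 counts against 23.1). The log2 fold changes of these 4 genes were 1.26 to 1.64, with adjusted p from 0.0714 to 0.176 in edgeR.

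At flare, all 6 genes passed the test against Th2 cultures with housekeeping scaling, 2 of them (Cd80 and Cd86) with TMM factors and 4 with DESeq2 size factors. With housekeeping scaling 51.6% of 403 genes were higher, 21.6% were lower and the median log2 fold change was 1.03. With TMM factors 145 of the 403 were higher and 155 lower, so 2 of 6 ligand genes is near that background. With DESeq2 size factors 152 were higher and 153 lower. All 3 flare samples lay above all 3 Th2 cultures for the 6 genes, as they did for 53.3% of the genes tested. The same 3 Th2 cultures serve both skin comparisons. Cd86 had 108, 120.4 and 199 scaled counts in flare mice 1, 2 and 12, against 9.59, 18.4 and 22.0 in Th2 cultures. Mouse 12 was far above its limit (62 counts against 20.5), and mice 1 and 2 were below theirs (14 counts against 17.4, and 18 against 23.7). The log2 fold change was 3.13 (SE 0.41, adjusted p = 8.76e-05 from edgeR), and after background subtraction it was 2.44 (adjusted p = 0.0225, limma).

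Cd274 had 201, 134 and 257 scaled counts in flare mice 1, 2 and 12, all above the Th2 cultures. Mice 1 and 12 exceeded their limits (26 counts against 17.4, and 80 against 20.5) and mouse 2 did not. Its log2 fold change was 1.93 (SE 0.41, adjusted p = 0.00182 from edgeR). It was 1.38 after background subtraction (adjusted p = 0.0747, limma) and 0.93 with TMM factors (adjusted p = 0.0717).

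The remaining 4 genes were at the edge of detection at flare. Cd80 had 147, 87.0 and 38.6 scaled counts and was above the limit in mouse 1 (19 counts against 17.4). Cd40, at 131, 66.9 and 67.5, was above it in mouse 12 (21 counts against 20.5). Icosl, at 69.5, 46.8 and 25.7, and Pdcd1lg2, at 84.9, 46.8 and 61.1, were above it in no flare sample. Their log2 fold changes of 2.30, 2.06, 1.45 and 2.07, with adjusted p from 0.00162 to 0.0246 in edgeR, therefore rest on counts near the background, and none of the 4 was called higher after subtraction of it. Icosl was then lower (log2 fold change -3.06, adjusted p = 0.00518, limma).

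**Figure D3:**
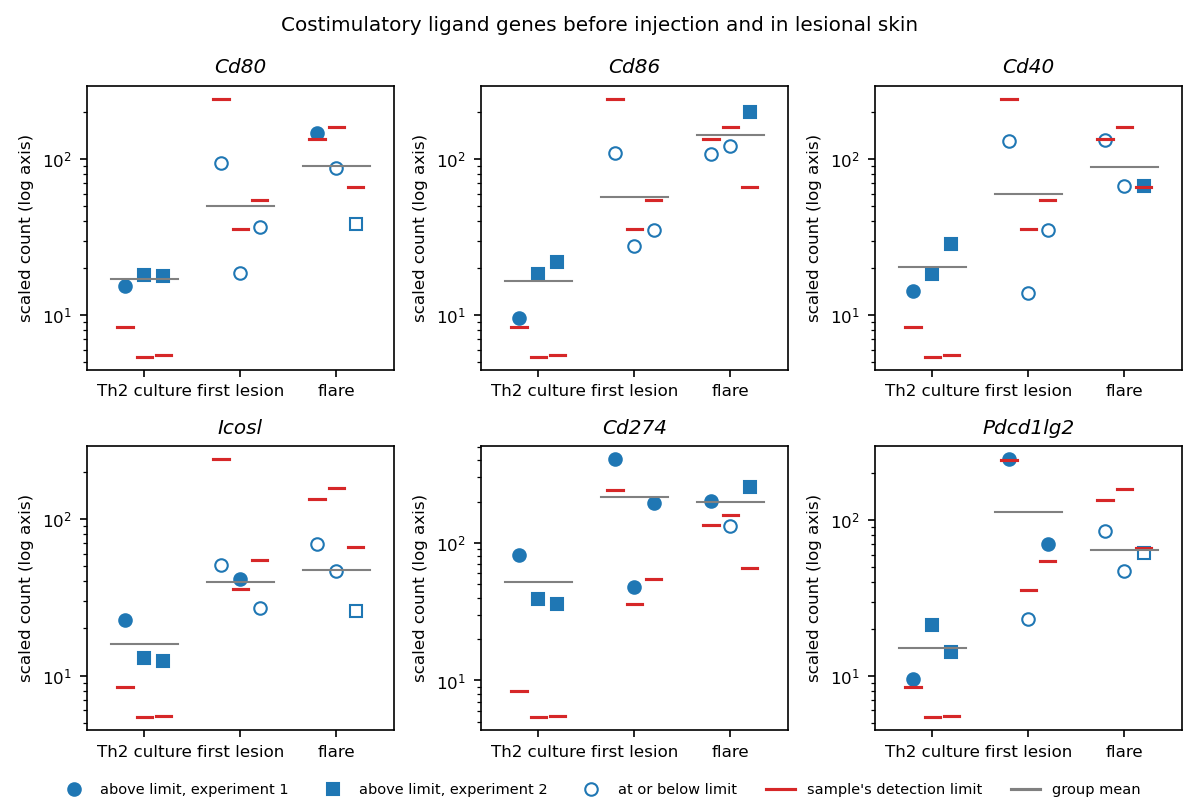
Scaled counts (log axis) of the 6 genes in Th2 cultures, first-lesion skin and flare skin; open symbols lie at or below the sample's detection limit (red bars), circles are experiment 1, squares experiment 2, and gray lines are group means. In skin 11 of 36 values are filled, 5 of them for Cd274, and the limits lie above the Th2 culture mean of the gene except for Cd274 in first-lesion mouse 3 (35.7 against 52.4 scaled counts).

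The negative control probes, which have no target in the mouse, were also added to the skin fits as tested features. Against Th2 cultures 6 of 8 were called higher in first-lesion skin, with log2 fold changes of 2.66 to 4.97, and 8 of 8 at flare, with 3.05 to 4.91. Of the ligand genes 1 of 6 exceeded the lowest of these controls in each comparison, Pdcd1lg2 at first lesions and Cd86 at flare, and none exceeded their median (3.84 and 4.12). With scaling to the positive controls, which are spiked in equal amount and do not follow the RNA input, the median of all genes was -3.74 at first lesions and -4.05 at flare, and all 6 ligand genes were lower in skin, by -2.10 to -3.45 and -1.94 to -3.60 on the log2 scale. The skin values farthest above their limits were those of Cd86 and Cd274 in flare mouse 12 and of Cd274 in first-lesion mouse 6.

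**Figure D4:**
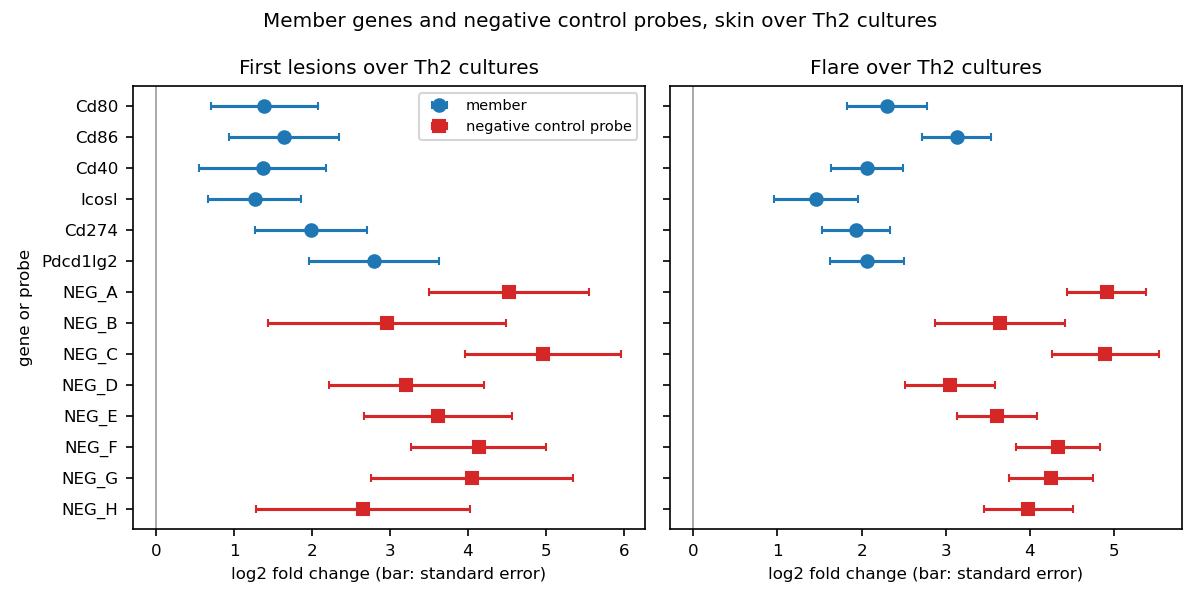
Log2 fold changes (bars, standard error) of the 6 ligand genes (blue) and the 8 negative control probes (red) in first-lesion skin and in flare skin over Th2 cultures. The ligand genes are from the main fits, and the controls from fits with the control probes added. The controls span 2.66 to 4.97 and 3.05 to 4.91, and the ligand genes 1.26 to 2.80 and 1.45 to 3.13.

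The receptors on the T cell side were at or below the limit in all 6 skin samples and above it in all 6 cultures. Icos was at least 36.6-fold lower at first lesions and at least 33.8-fold lower at flare than in Th2 cultures, where it averaged 4055 scaled counts, with the mean skin limit taken as its level (adjusted p = 6.38e-05 and 1.55e-06 from edgeR). Ctla4 was at least 6.73-fold and 6.22-fold lower (adjusted p = 0.00214 and 2.51e-05). For Cd28, Pdcd1 and Cd40lg the limit in skin was above the culture mean, so no fold is given.

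Presenting cell genes were measured in part in the same skin samples. Of 8 MHC class II presentation genes 6 were above the limit at first lesions and 5 or 6 at flare, and Ciita, the transactivator of this family, and H2-Ob in 0 of 6 skin samples. Of 5 dendritic cell genes 2 or 3 were above it at first lesions and 1 or 2 at flare, and of 10 B cell genes 0 to 2 and 1 or 2. The sum of the MHC class II genes was 4798 to 27523 scaled counts at first lesions and 11053 to 20315 at flare, against 1855 to 5210 in Th2 cultures. By edgeR 4 were higher at first lesions and 6, H2-Ob among them, at flare, with TMM factors 3 were higher at first lesions and 2 higher and 1 lower at flare, and with positive controls all 8 were lower in both. The sum of 12 monocyte and macrophage genes was 2082 to 7099 and 5411 to 9472, against 66 to 95 in Th2 cultures. Of those tested 6 of 6 were higher at first lesions and 8 of 8 at flare. C1qa, C1qb, Cd14, Cd163 and Csf1r, and Emr1 at flare, were above the limit in 0 of 6 cultures. They passed the filter through the skin samples alone, so their direction was fixed in advance under any scaling to RNA content. With TMM factors these monocyte counts were again 6 of 6 and 8 of 8, and with positive controls 5 were higher and 1 lower in each. Their part in the Cd274 and Cd86 values of skin was not tested.

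The pathways that act on the ligands were divided in skin. Of 10 IFNγ pathway genes tested at first lesions 3 were higher, among them the inducible chemokines Cxcl9 (log2 fold change 4.66) and Cxcl10, which was above the limit in 3 of 3 skin samples and 0 of 3 Th2 cultures, and 2 were lower, Socs1 (-4.03) and Jak1 (-1.01). Cxcl10 passed the filter through the skin samples alone, so its direction was fixed in advance under any scaling to RNA content. At flare 2 of 9 were higher, Cxcl9 (3.32, above the limit in 1 of 3 flare samples) and Ifngr2 (0.97). The negative control probes spanned 2.66 to 4.97 at first lesions and 3.05 to 4.91 at flare, and each range holds the Cxcl9 value of its comparison. At first lesions Cxcl9 was above the limit in 3 of 3 samples. The 3 lower genes at flare were led by Socs1 (-4.12, above the limit in 1 of 3 flare samples). With TMM factors 2 were higher and 5 lower at first lesions and 1 and 6 at flare, and with positive controls 1 and 8, and 0 and 9. In the IL-4 and IL-13 pathway the receptor chain Il13ra1 was higher (6.51 in both), while Il4ra (-4.13 and -3.15) and Il4 were among the 4 and 5 of 7 genes that were lower. Il4 was above the limit in 0 of 6 skin samples, so that, from the mean limits, it was at least 5.83-fold lower at first lesions and at least 5.39-fold lower at flare. With TMM factors 1 gene of this pathway was higher and 5 were lower in both comparisons, and with positive controls 1 and 6. Of 9 CD40 signaling genes Nfkb2, the precursor of the p52 subunit, was the only one higher at first lesions (1.28), and 3 were lower, Nfkb1 (-1.35), Traf6 (-1.04) and Traf1. At flare 5 were higher, led by Nfkb2 (2.18) and its partner Relb (1.99), and Traf1 was lower. Traf1 was above the limit in 0 of 6 skin samples, and no fold is given for it. These directions are relative to housekeeping genes. With TMM factors 0 of the 9 were higher, the call of Nfkb2 being lost, and 3 lower at first lesions, and 2 were higher and 4 lower at flare. With positive controls all 9 were lower in both comparisons.

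Between flare and first-lesion skin, Cd274 was the ligand gene that could be tested by edgeR and did not pass, and the other 5 could not reach the threshold in this design. Of 277 genes tested 0% passed edgeR's adjusted threshold, with 30 genes at an unadjusted p under 0.05 and 10 called by DESeq2's Wald test. Cd274 averaged 197 ± 61.8 scaled counts at flare and 216 ± 180 at first lesions (SD, n = 3 each), a log2 fold change of -0.064 (SE 0.69, adjusted p = 0.981 from edgeR). The other 5 did not pass the filter, and their groups overlapped. The exact two-sided permutation p was 0.2 for Cd86, 0.4 for Cd80, 0.5 for Cd40, 0.7 for Icosl and 0.8 for Pdcd1lg2, where 20 assignments cannot give less than 0.1. The smallest of these p-values was that of Cd86, at 143 ± 49.5 scaled counts at flare and 57.3 ± 44.8 at first lesions (SD, n = 3 each), a mean difference of 85.3, with 1 of 6 values above the limit.

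Ordered by group mean with housekeeping scaling, Cd80 and Cd86 ran from Th0 through Th1, Th2 and first lesions to flare, and Cd40 and Icosl did so with Th1 below Th0. Cd274 ran from Th0 (36.3) through Th1 (40.6), Th2 (52.4) and flare (197) to first lesions (216), and Pdcd1lg2 from Th0 (6.35) through Th2 (15.0) and Th1 (16.0) to flare (64.3) and first lesions (114). The skin groups overlapped each other for all 6 genes. Th2 and Th1 cultures overlapped for Cd80, Cd274 and Pdcd1lg2, and Th2 cultures overlapped first-lesion skin for Cd40 and Cd274. Means in skin hold values below the limit and are upper estimates of the level, and with positive controls all 6 genes were lower in both skin groups than in Th2 cultures.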

How the data were processed

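RNA from 12 samples was measured on NanoString's mouse Immunology panel. The authors deposited raw counts per probe, not scaled and not background-corrected, for 547 endogenous and 14 housekeeping genes and for control probes, 8 negative and 6 positive. Groups followed the sample labels. The detection limit of a sample was its negative control mean plus 2 SDs. Scaling used 7 housekeeping genes that exceeded it in every sample, through their geometric mean. A gene entered a comparison if the number of samples above the limit reached the size of the smaller group, and was tested with edgeR 4.0.16 (quasi-likelihood, R 4.3.3), with Benjamini-Hochberg adjustment over all genes tested and a threshold of 0.05. Standard errors were obtained by dividing each log2 fold change by the root of its F statistic. Genes that did not pass the filter were compared by exact permutation of scaled counts. The fits were tested on simulated counts, whose outcome is not reported here, so no error rate is given for these group sizes. The members and gene lists were chosen with earlier results of these data known, and all members are named. List genes are named where they passed, at most the 2 with the largest change in each direction, or as direct receptors; Irf1 in cultures and the receptors that did not pass were added for context, after their values were seen. Some list genes are not reported here.

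Alternatives were TMM, DESeq2 size factors (DESeq2 1.42.0), total endogenous counts, positive controls or Cd3 chain genes as the scaling, no filter, a limit at 3 SDs, DESeq2's Wald test, limma 3.58.1 on log2 values of scaled counts (pseudocount 1), background subtraction, all 12 samples in 1 fit, the experiment as a replicate block, skin samples of experiment 1 only, the methods' t-test, and each sample left out. Background subtraction before edgeR and the negative controls as tested features were added after the data were seen. Cultures of the same experiment deviated together only weakly (correlations 0.18, 0.12 and 0.12). The main tests did not pair samples by experiment, which the replicate block does. All 6 member probes' accessions were found in RefSeq (GRCm38.p6). Values of a few counts carry large counting error.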

Additional observations from a re-analysis of the deposited data

Results flagged for a closer look

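Pdcd1lg2, which encodes PD-L2, had opposite directions in experiments 1 and 2. Th2 over Th1 cultures gave a log2 ratio of -1.09 in experiment 1 and, against the Th1 culture of experiment 2, 0.88 for the male and 0.29 for the female Th2 culture. The difference between the experiments was not tested, since experiment 1 holds 1 culture of each kind. The opposite direction was kept for both Th2 cultures of experiment 2 with positive controls as the scaling (-1.27, 0.79 and 0.24). With TMM factors the female culture turned (-1.61, 0.15 and -0.50), and with total endogenous counts all ratios were negative (-1.88, -0.11 and -0.79).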

How the results depend on the processing

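In Th2 against Th1 cultures, the 2 ligand genes called became 0 with TMM factors, DESeq2 size factors, total endogenous counts, Cd3 chain genes, all 12 samples in 1 fit, background subtraction before edgeR and the methods' t-test (unadjusted or adjusted), and 1 with positive controls, no filter, DESeq2's Wald test, background subtraction before limma and the replicate block. Cd80 (main 0.11) was -0.53, -0.52, -0.80 and -0.70, and Cd274 (0.37) was -0.23, -0.23, -0.50 and -0.37, with TMM factors, DESeq2 size factors, total counts and Cd3 chain genes, and Cd80 was -0.0044 and -0.0045 with background subtraction before limma and edgeR.

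At first lesions, the 2 called became 5 with total counts, 6 (lower) with positive controls, 1 with the methods' unadjusted t-test, and 0 with the adjusted t-test, the replicate block and both forms of background subtraction. With positive controls the log2 fold changes were -3.18 for Cd80, -2.94 for Cd86, -3.45 for Cd40, -2.86 for Icosl, -2.67 for Cd274 and -2.10 for Pdcd1lg2. Background subtraction gave -1.82 (limma) and -0.98 (edgeR) for Cd80, -1.13 and -0.41 for Cd86, -2.83 and -1.66 for Cd40, and -1.34 and -0.017 for Icosl.

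At flare, the 6 called higher became 2 with TMM factors and 3 with the adjusted t-test. Background subtraction left 1 higher and 1 lower before limma, and 2 higher and 1 lower before edgeR. With positive controls the values were -2.81 for Cd80, -1.94 for Cd86, -3.03 for Cd40, -3.60 for Icosl, -3.09 for Cd274 and -3.01 for Pdcd1lg2. Background subtraction before limma gave -0.49 for Cd80, -0.50 for Cd40, -3.06 for Icosl and -0.64 for Pdcd1lg2, and before edgeR -7.24 for Icosl. The cause was not tested. Cd274 in flare against first lesions was 0.28 in limma on log2 scaled counts and 0.045 after background subtraction (main -0.064).

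With each sample left out, 0 to 2 ligand genes were called in Th2 against Th1 cultures (0 without the Th1 culture of experiment 2), 0 to 5 at first lesions (0 without the female Th2 culture, 5 without mouse 3) and 5 or 6 at flare, where Icosl was the gene lost. Signs turned for Cd80 (-0.057) and Pdcd1lg2 (0.38) without the Th1 culture of experiment 1, for Cd274 (-0.11) and Pdcd1lg2 (0.16) without the Th2 culture of experiment 1, and for Cd274 in flare against first lesions without first-lesion mouse 1 (0.71) or flare mouse 2 (0.14). The count of all genes called in Th2 against Th1 cultures, 127 in the main test, was 67 with TMM factors, 64 with DESeq2 size factors, 76 with total counts, 70 with Cd3 chain genes, 49 with all samples in 1 fit, 72 without the Th1 culture of experiment 2, 69 without the female Th2 culture and 0 with the adjusted t-test, and at first lesions, 235 in the main test, it was 355 with no filter and 119 with the adjusted t-test. The replicate block changed no call of a ligand gene beyond those of Cd40 in cultures and of Cd274 and Pdcd1lg2 at first lesions, and it gave 6 at flare. In skin, limits of 17.4 to 46.3 counts stood beside ligand counts of 7 to 165.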
